A study of Schizosaccharomyces pombe with 6 samples.

Results

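The 9 genes described here encode the mitotic cohesin complex of Schizosaccharomyces pombe and the proteins that load, lock and release it. They are 9 of the 6952 genes in the count table. The set was a fixed list of gene names (psm1, psm3, rad21, psc3, mis4, ssl3, eso1, pds5 and wpl1), and it was chosen by the measured counts: pds5 and rad21 were higher in the cells that overexpressed aal1. Their differences between the groups are therefore given as a description: the text states which of them the fit across all genes called, beside the share of all genes, and prints no p-value for them. RNA was sequenced from stationary-phase cultures, whose cells the paper describes as non-dividing. The 3 aal1-pOE cultures carried a plasmid that overexpresses the lncRNA aal1 from P41nmt1, a promoter that thiamine represses, and the 3 evc cultures carried the vector without an insert. Both groups were 972h-/leu1-32 cells that had been grown in minimal medium (EMMG) into stationary phase, sampled on day 6 of chronological ageing. The model is limited in that aal1 came from a plasmid and not from its own locus.

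Cohesin is a ring that encircles DNA. A pair of SMC proteins, Psm1 and Psm3, form coiled-coil arms that meet at a hinge, the kleisin Rad21 closes the ring between the ATPase heads, and Psc3 binds Rad21 as the STAG subunit. The loader Mis4-Ssl3 places rings on chromatin, the acetyltransferase Eso1 modifies Psm3 during DNA replication so that sister chromatids stay joined, and Pds5 with Wpl1 opens rings that have not been acetylated. Rad21 is cut by separase at anaphase. In fission yeast, several S phase genes are transcribed by the factor MBF from sites with the letters ACGCGT, the MluI cell cycle box (MCB).

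The MCB letters were looked up at all 9 genes, since a shared promoter element is a feature that the choice of the set did not use. In the RefSeq annotation of ASM294v3, 3 of the 9 genes held ACGCGT, which reads the same on both strands, between 250 bases before and 50 bases after the annotated gene start, whereas 166 of 5110 protein-coding genes (3.25%) did. These were psm1, pds5, with motifs starting at 51 and 39 bases before the gene start, and psm3, 15 bases before it. The stretches at pds5 and psm3 are shown 5′ to 3′ on the strand of each gene, with the motif in capitals.
pds5, chrI:1911785-1911814, plus strand: acaataaatggaACGCGTtcttttACGCGT
psm3, chrI:1224856-1224885, minus strand: agaagacacgcgACGCGTaaatactttaac
The pds5 stretch holds a pair of copies separated by a short run of other bases. rad21, psc3, mis4, ssl3, wpl1 and eso1 lacked these letters in that window. A window of 1000 bases before the coding start was added after the data were seen. There the motif occurred at 6 of 9 genes and at 7.2% of all protein-coding genes, with 4 copies at psc3, 3 at pds5 and 1 each at psm1, psm3, wpl1 and eso1. This window reaches into neighbouring genes. Most psc3 copies and the wpl1 copy lie nearer the starts of cdt2 and cdt1, neighbours on the opposite strand. Both neighbours are in the list of MBF and its targets described below. The eso1 copy lies inside ale1, and the farthest pds5 copy inside ppk1. The wider window therefore does not assign these copies to the cohesin genes. The forkhead core GTAAACA, searched on both strands, was found in the shorter window at mis4 and eso1, and 16.5% of all promoters held it. A match of letters is a description of the sequence and does not show that a factor binds there.

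Library totals ranged from 5839863 to 13164975 counts, the largest being aal1-pOE replicate 2. The overexpressed RNA matched the labels, with 54, 141 and 58 counts of aal1 in aal1-pOE and 4, 2 and 4 in evc (log2 fold change 3.39 ± 0.58 SE, edgeR quasi-likelihood test with Benjamini-Hochberg adjustment, adjusted p = 0.0106). aal1-pOE replicate 2 stood apart from the other libraries, with correlations of log2 CPM of 0.841 to 0.919 against 0.936 to 0.984 among the others. CPM are counts per 1000000 counts of the library, and TMM-scaled CPM are divided in addition by a factor that lines the libraries up on the bulk of their genes. That factor was 1.80 for aal1-pOE replicate 2 and between 0.763 and 1.07 for the other libraries. The fold changes below are therefore also given without that library. aal1 and apc13 fell under the filter on low values in that fit, since both passed it only through the 3 aal1-pOE libraries. The adjusted p of aal1 thus belongs to a gene that was tested only because it was high in that group. In a bulk culture, fewer cells with a transcript and less of it per cell cannot be told apart.

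All 9 cohesin genes had a positive log2 fold change in aal1-pOE over evc, from 0.85 for ssl3 to 2.68 for pds5, with a median of 1.33 (n = 3 against 3). All 9 passed the filter on low values. The median over all 5823 tested genes was 0.08, and 3147 of them had a positive value. The genes called higher were pds5 and rad21, which restates the choice of the set and is no result about it, and 79 of all tested genes (1.36%) were called higher, of 5.99% called in either direction. No cohesin gene was called lower, against 270 of all tested genes (4.64%), and with all 9 values positive the unadjusted count, the likelihood ratio test, DESeq2 and limma-voom also gave 0. The call of pds5 was lost on leaving out evc replicate 1, 2 or 3, and that of rad21 on leaving out evc replicate 2 or 3. In each of the last 2 fits 0.0173% of all genes were called higher. Without aal1-pOE replicate 2, pds5, rad21 and mis4 were called, with 4.42% of all genes called higher. In that fit all 9 values remained above 0, but the median was 0.69 and psc3 stood at 0.02 ± 0.36 (SE). Scaled by library totals alone the median of the 9 genes was 2.09, and that of all genes shifted by 0.72 to 0.80.

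**Figure D1:**
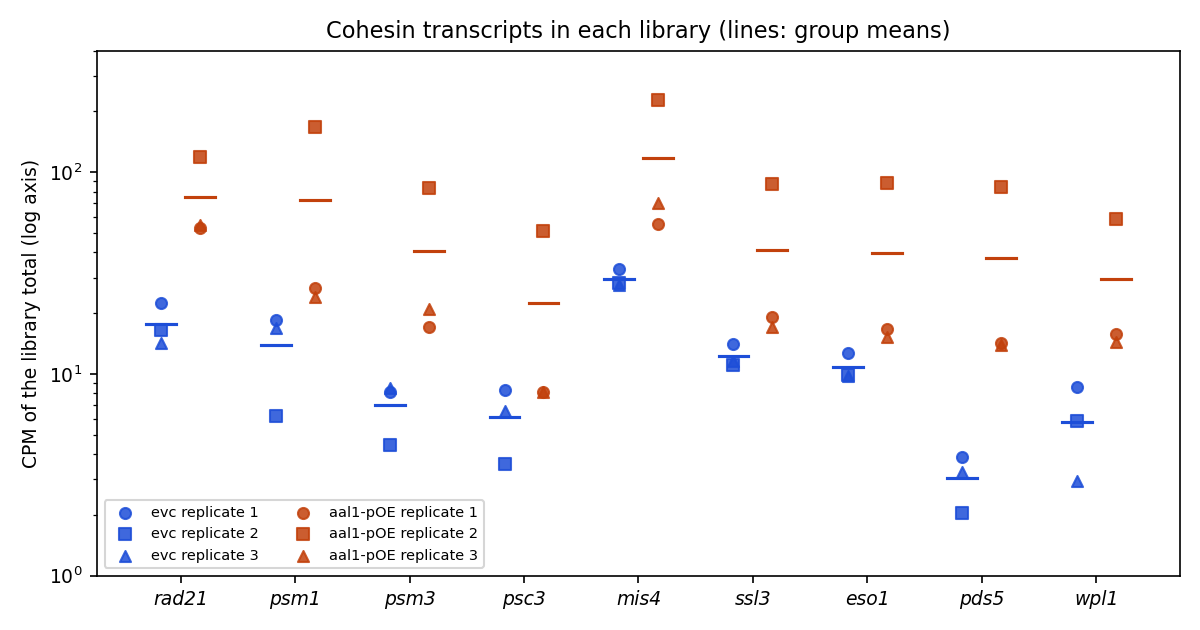
CPM of the library total (log axis) of each cohesin gene in the 6 libraries, with evc in blue, aal1-pOE in orange and group means as lines. The square of aal1-pOE replicate 2 is the highest point for every gene, and the points of the groups overlap for psc3.

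The pds5 gene (SPAC110.02, chromosome I from 1911848 to 1915897 on the plus strand) encodes the HEAT-repeat protein that binds the ring at Rad21 and both stabilises cohesion and takes part in release. It had 126, 1112 and 85 counts in aal1-pOE replicates 1 to 3 against 27, 12 and 21 in evc. As TMM-scaled CPM these were 13.3, 47.1 and 13.4 in aal1-pOE against 4.55, 2.69 and 4.23 in evc. Every aal1-pOE library lay above every evc library, and aal1-pOE replicates 1 and 3 were almost equal. The fitted log2 fold change was 2.68 ± 0.58 (SE), and 1.80 ± 0.31 without aal1-pOE replicate 2. The evc counts were low, and the 12 counts of evc replicate 2 carry an exact 95% Poisson interval of 6.2 to 21, which covers counting error only. pds5 was the least abundant of the 9 transcripts per length in every evc library.

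The kleisin gene rad21 (SPCC338.17c, chromosome III from 1342893 to 1346239, plus strand) gave 464, 1557 and 336 counts with aal1-pOE, compared with 157, 96 and 92 for evc. The TMM-scaled CPM were 49.0, 65.9 and 53.0 in aal1-pOE against 26.5, 21.5 and 18.5 in evc. Its aal1-pOE values lay closer together than those of the other 8 genes, with a log2 fold change of 1.33 ± 0.25 (SE) and of 1.21 ± 0.20 without aal1-pOE replicate 2. The called members, pds5 and rad21, thus differed in how much the library that stands apart added to them.

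The SMC genes psm1 and psm3 code for the arms of the ring. psm1 (SPBC29A10.04, chromosome II from 2540716 to 2545157, plus strand) drew 235, 2212 and 148 counts from the aal1-pOE libraries and 129, 36 and 109 from evc. On the TMM scale, its CPM were 24.8, 93.6 and 23.3 against 21.8, 8.08 and 21.9. Outside aal1-pOE replicate 2 and evc replicate 2, its 4 remaining values lay between 21.8 and 24.8, and the log2 fold change of 1.46 ± 0.58 (SE) was 0.49 ± 0.39 without aal1-pOE replicate 2. psm1 ends 35242 bases before the annotated aal1 locus on the same chromosome.

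psm3 (SPAC10F6.09c, chromosome I from 1220969 to 1224858, minus strand) gave 150, 1103 and 129 counts with aal1-pOE, compared with 57, 26 and 55 for evc. Its TMM-scaled CPM were 15.9, 46.7 and 20.3 against 9.62, 5.83 and 11.1. The groups did not overlap, and the log2 fold change was 1.65 ± 0.47 (SE), or 1.03 ± 0.31 without aal1-pOE replicate 2. Whether psm1 and psm3 differed from each other in this was not tested, and their ratio, given below, overlapped between the groups.

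The STAG gene psc3 (SPAC17H9.20, chromosome I from 2036295 to 2040544, plus strand) drew 72, 670 and 50 counts from the aal1-pOE libraries and 58, 21 and 42 from evc. It gave TMM-scaled CPM of 7.61, 28.4 and 7.88 in aal1-pOE against 9.79, 4.71 and 8.45 in evc. Only aal1-pOE replicate 2 lay above the evc range, and its log2 fold change of 0.94 ± 0.59 (SE) rested on that library.

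The loader genes are given together, and a difference between them was not tested. mis4 (SPAC31A2.05c, chromosome I from 391628 to 396939, minus strand), the HEAT-repeat subunit of the loader, gave 489, 3010 and 430 counts with aal1-pOE, compared with 232, 165 and 177 for evc. Its TMM-scaled CPM were 51.7, 127 and 67.8 against 39.1, 37.0 and 35.6. The 3 evc libraries were close to each other and all lay below aal1-pOE, with a log2 fold change of 1.15 ± 0.32 (SE) and of 0.69 ± 0.18 without aal1-pOE replicate 2. ssl3 (SPAC1687.18c, chromosome I from 936188 to 938118, minus strand), which encodes the partner that holds Mis4 in the loader, drew 168, 1151 and 105 counts from the aal1-pOE libraries and 98, 65 and 75 from evc. On the TMM scale, its CPM were 17.8, 48.7 and 16.6 in aal1-pOE against 16.5, 14.6 and 15.1 in evc. aal1-pOE replicate 3 and evc replicate 1 were the same to within a ratio of 1.001, and the log2 fold change of 0.85 ± 0.43 (SE) was 0.17 ± 0.21 without aal1-pOE replicate 2.

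eso1 (SPBC16A3.11, chromosome II from 4276864 to 4279653, minus strand) encodes a fusion of a translesion DNA polymerase with the cohesin acetyltransferase. It gave 147, 1159 and 93 counts with aal1-pOE, compared with 89, 58 and 63 for evc. The TMM-scaled CPM were 15.5, 49.1 and 14.7 in aal1-pOE against 15.01, 13.01 and 12.7 in evc. The groups overlapped, and without aal1-pOE replicate 2 the log2 fold change of 0.97 ± 0.48 (SE) was 0.17 ± 0.22. wpl1 (SPBC428.17c, chromosome II from 474574 to 476728, minus strand), the release factor, drew 139, 775 and 88 counts from the aal1-pOE libraries and 60, 34 and 19 from evc. Its TMM-scaled CPM were 14.7, 32.8 and 13.9 against 10.1, 7.63 and 3.82. The groups did not overlap, evc replicate 3 was the lowest library, and the log2 fold change was 1.51 ± 0.49 (SE), or 0.996 ± 0.379 without aal1-pOE replicate 2.

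**Figure D2:**
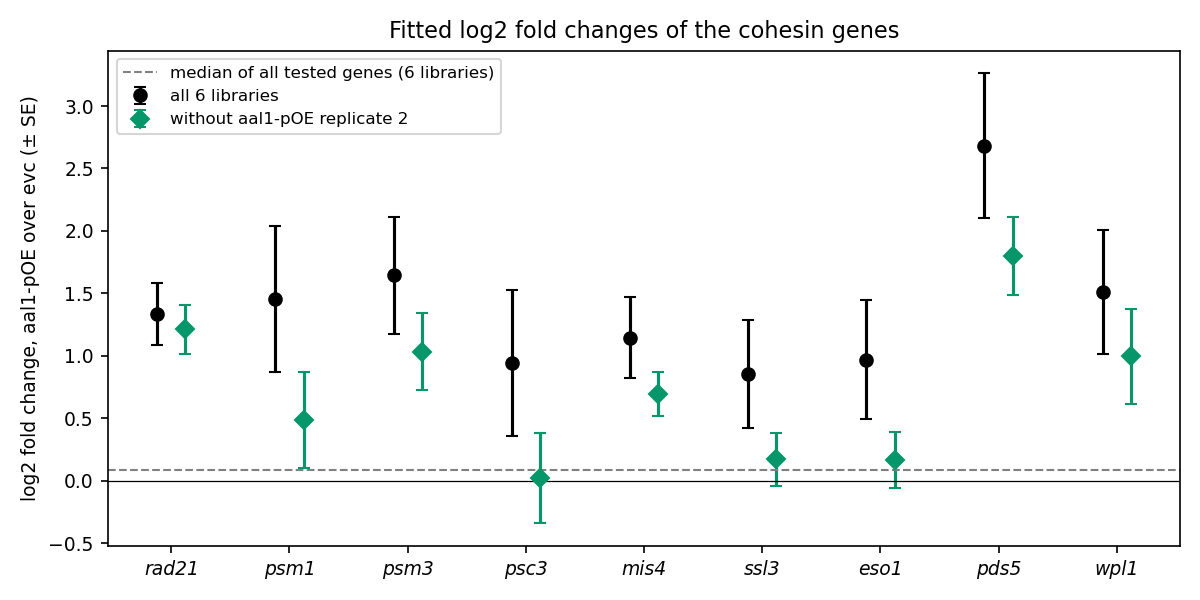
Fitted log2 fold change of each cohesin gene, aal1-pOE over evc, with bars of 1 SE, for all 6 libraries (black circles) and without aal1-pOE replicate 2 (green diamonds). The dashed line is the median of all tested genes, 0.08. The values of rad21 (1.33 and 1.21) nearly coincide, whereas that of psc3 goes from 0.94 to 0.02.

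In CPM of library totals, the 3 aal1-pOE values lay above the 3 evc values for 8 of 9 genes, psc3 being the exception, but this held for 47.2% of all tested genes. The opposite, all aal1-pOE values below all evc values, held for 0 of 9 genes and for 6.29% of all. On the TMM scale it held for 7 of 9 genes, without psc3 and eso1, and for 18.4% of all tested genes. The separation of ssl3 and psm1 on that scale was as narrow as given above. aal1-pOE replicate 2 was the highest of the 6 libraries for all 9 genes, and evc replicate 2 was the lowest for 5. The summed CPM of the 9 genes was 226, 968 and 239 in aal1-pOE against 130, 87.8 and 101 in evc, so that aal1-pOE replicate 2 was above the sum of the other 5 libraries.

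To place each gene beside all others within single libraries, the log2 difference of each library from evc was ranked over the 5823 tested genes (for an evc library, from the other evc libraries). In aal1-pOE replicates 1 and 3, pds5 stood at percentiles 99.1 and 99.3, rad21 at 95.6 and 96.9, wpl1 at 95.2 and 94.4, and psm3 at 91.6 and 96.7. psm1 stood at 84.6 and 82.9 and mis4 at 76.5 and 91.6. psc3, ssl3 and eso1 stood between 51.5 and 61.3 in these libraries, near the middle of all genes. In aal1-pOE replicate 2 the 9 genes ranged from 85.3 for rad21 to 99.4 for pds5, so rad21 ranked lowest in the library in which its level was highest. The division into 6 genes that ranked high in replicates 1 and 3 and 3 that did not was made after these values were seen. The evc libraries ranged widely too, with psm1 at percentile 1.28 in evc replicate 2 and wpl1 at 1.71 in evc replicate 3.

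**Figure D3:**
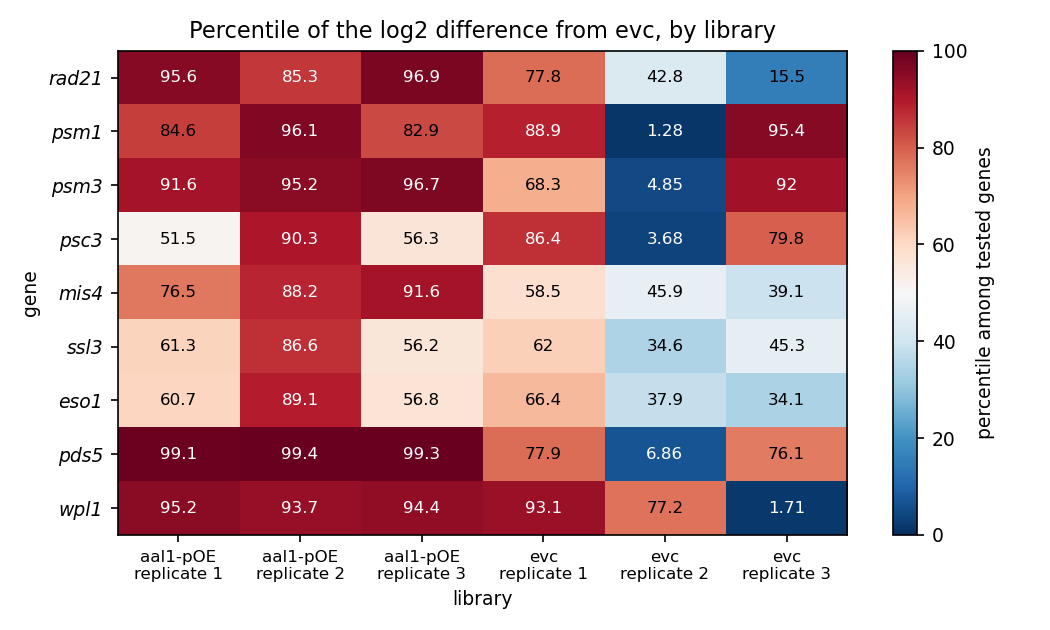
Percentile of the log2 difference from evc among 5823 tested genes, for each cohesin gene (rows) in each library (columns). pds5 is above 99 in all 3 aal1-pOE libraries, and psc3, ssl3 and eso1 are high in aal1-pOE replicate 2 but between 51.5 and 61.3 in replicates 1 and 3.

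Genes of like level and length give the background of these values. All tested genes were cut into 4 equal groups by mean CPM over the 6 libraries, so the grouping used the aal1-pOE values too. eso1, pds5, psc3, psm3, ssl3 and wpl1 fell in the second group, from 12.1 to 38.4 CPM. There the median log2 fold change was 0.35 and 1.79% of genes were called higher. mis4, psm1 and rad21 fell in the third group, with a median of 0.09 and 2.2% called higher. Against the same bounds, the evc means of pds5 (3.06 CPM), wpl1 (5.79), psc3 (6.14), psm3 (7.05) and eso1 (10.8) lay under the second group. Those of rad21 (17.7), psm1 (13.9) and mis4 (29.7) lay under the third. The lowest group had a median of 0.44, with 1.03% called higher. In aal1-pOE replicate 2 alone the median log2 difference from evc was 0.97 in the lowest group of level, 0.68 in the second, -7.19e-05 in the third and -0.97 in the highest. The genes of the third group, mis4, psm1 and rad21, had log2 differences of 1.77, 2.56 and 1.58 in that library. Cohesin genes are long, and 8 of 9 fell in the group of longest coding sequences, from 1782 bases up, whose median log2 fold change was 0.20 against -0.06 in the shortest group.

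Levels of the 9 transcripts were compared with each other as CPM per kilobase of spliced length. In evc, ssl3 had 6.92 ± 0.88 CPM per kilobase (SD, n = 3), mis4 5.90 ± 0.62, rad21 5.43 ± 1.30 and eso1 3.88 ± 0.60. The lower levels were 3.15 ± 1.53 for psm1, 2.80 ± 1.37 for wpl1, 1.83 ± 0.59 for psm3, 1.53 ± 0.59 for psc3 and 0.76 ± 0.23 for pds5. The ranges of neighbours in this order overlapped at every step, so the order is firm only between genes farther apart. With coding length in place of spliced length rad21, which has long untranslated regions, came first. In evc, pds5 stood at percentile 2.33 of the 4911 tested protein-coding genes by level per length, and in aal1-pOE at 11.5. In aal1-pOE it ranked eighth of the 9 genes in every library, and psc3 ranked last in every one. The level of rad21 was the highest of the 9 in aal1-pOE replicates 1 and 3.

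Ratios of counts within a library need no scaling between libraries, and 6 were formed that follow the make-up of the complex. The ratio of psc3 to psm3, of the STAG subunit to an arm of the ring, was 0.48, 0.607 and 0.388 in aal1-pOE against 1.02, 0.808 and 0.764 in evc. All 3 aal1-pOE values were lower, and aal1-pOE replicate 2 did not stand apart. The 95% counting interval of evc replicate 2, 0.432 to 1.49, nevertheless included the values of aal1-pOE replicates 1 and 2. That of evc replicate 3, 0.499 to 1.16, included the value of aal1-pOE replicate 2. The ratio of pds5 to psm3 was 0.84, 1.01 and 0.659 in aal1-pOE against 0.474, 0.462 and 0.382 in evc, again without overlap and now higher in aal1-pOE. pds5 was picked because it was higher in aal1-pOE, so the direction of this ratio is not independent of the choice. The counting interval of evc replicate 2, 0.212 to 0.948, included the values of aal1-pOE replicates 1 and 3. That of evc replicate 1, 0.288 to 0.761, included the value of aal1-pOE replicate 3. The ratio of mis4 to ssl3, the loader subunits, was 2.91, 2.62 and 4.1 in aal1-pOE against 2.37, 2.54 and 2.36 in evc. The nearest values, 2.62 and 2.54, lay within each other's counting intervals. The values of aal1-pOE replicates 1 and 2 lay within the intervals of all 3 evc libraries. The groups overlapped in the ratio of psm1 to psm3 (1.15 to 2.01 in aal1-pOE, 1.38 to 2.26 in evc), of rad21 to psm3 (1.41 to 3.09 and 1.67 to 3.69) and of wpl1 to pds5 (0.697 to 1.1 and 0.905 to 2.83).

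**Figure D4:**
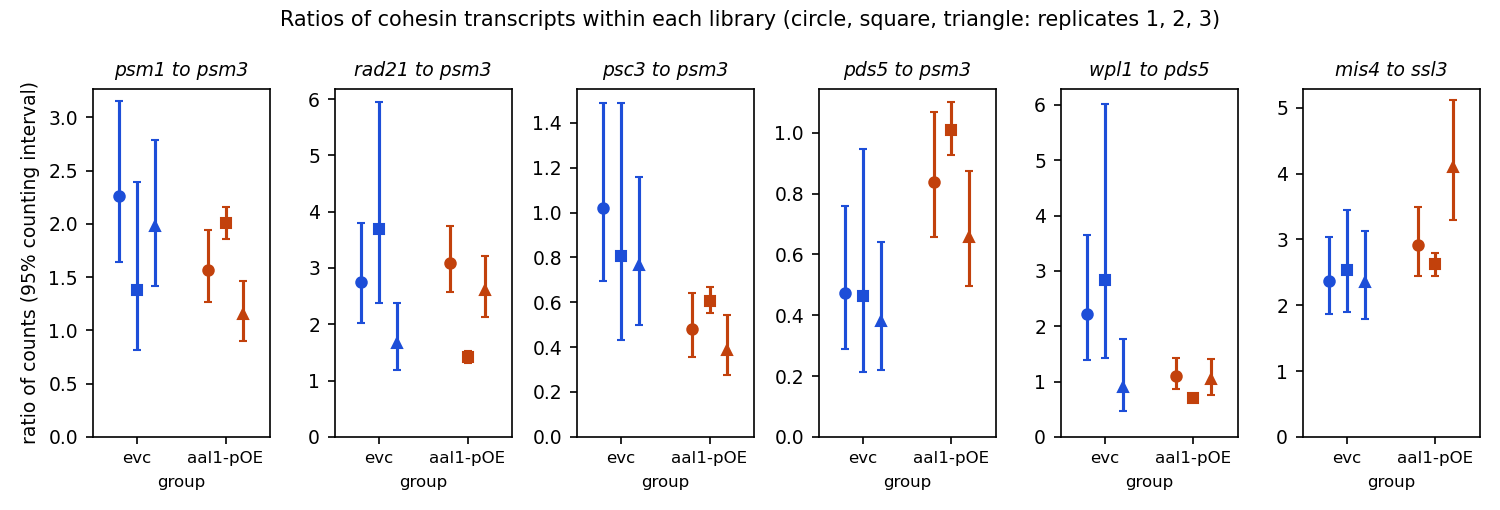
Ratio of the counts of paired cohesin genes in each library, with exact 95% counting intervals, for evc (blue) and aal1-pOE (orange). The aal1-pOE values of psc3 to psm3 lie between 0.388 and 0.607, below the evc values of 0.764 to 1.02, and those of pds5 to psm3 lie above evc. pds5 was picked because it was higher in aal1-pOE.

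Expressed as a share of all cohesin counts, pds5 made up 6.33, 8.72 and 5.81% in aal1-pOE against 2.98, 2.34 and 3.22% in evc. The shares of ssl3 were lower in aal1-pOE, at 8.44, 9.03 and 7.17% against 10.8, 12.7 and 11.5%. eso1 had 7.39, 9.09 and 6.35% against 9.81, 11.3 and 9.65%. The shares within a library have a fixed sum, so a larger share of pds5, picked because it was higher, leaves less for the others. The log2 fold changes of ssl3 and eso1 themselves were positive, at 0.85 and 0.97. The share of rad21 overlapped between the groups, since it was 23.3 and 22.9% in aal1-pOE replicates 1 and 3 but 12.2% in replicate 2, and 14.1 to 18.7% in evc. The 36 pairwise correlations among the 9 genes over the 6 libraries had a median of 0.874, with the highest, 0.999, between ssl3 and eso1 and the lowest, 0.598, between rad21 and psc3. These points share the group difference and aal1-pOE replicate 2.

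By likeness of log2 CPM over the same 6 libraries, among 4592 tested genes with at least 10 CPM on average, the genes nearest to pds5 were SPCC1682.06 (Pearson r = 0.9968), vps52 (0.9966), gms2 (0.9957), SPAC18B11.11 (0.9948) and aga1 (0.9935). Those nearest to rad21 were SPAC25G10.01 (0.9933), saf3 (0.9918), ptk1 (0.9916), crb2 (0.9915) and swi2 (0.9881). crb2 encodes a DNA damage checkpoint mediator and swi2 a partner of recombination proteins in mating-type switching. No cohesin gene was among the nearest of either, and these correlations are descriptions over libraries that share a group difference.

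Lists of related genes were read from the same fit across all genes. Of 77 related genes, 72 were tested, and moa1, ctf8, mik1, dmc1 and mug20 were too low. Of the 72, 54 had a positive log2 fold change, beside 3147 of all 5823 tested genes. Their median was 0.49, and the edgeR test called 1 higher and 1 lower. The 1 called higher of 72 is near the background of 1.36%, and the background of genes called lower was 4.64%. At an unadjusted p under 0.05 there were 23 higher and 2 lower, where 14.6% of all tested genes were higher and 12.5% lower. Without aal1-pOE replicate 2 the median of the 68 that could be tested was 0.23, with 5 called higher and 1 lower. In that fit 4.42% of all tested genes were called higher and 9.09% lower. The gene called higher was cut3 (SPBC146.03c), the Smc4 arm of condensin, the complex that compacts mitotic chromosomes. It had 75.4, 202 and 69.7 CPM of library totals in aal1-pOE and 37.4, 32.0 and 29.9 in evc, so that all 3 aal1-pOE libraries were higher (log2 fold change 1.01 ± 0.25 SE, edgeR adjusted p = 0.048), and the value was 0.74 ± 0.15 without aal1-pOE replicate 2. The call was lost in limma-voom (adjusted p = 0.0875) and on leaving out aal1-pOE replicate 1 (0.0756) or evc replicate 1 (0.0826), 2 (0.203) or 3 (0.221). The gene called lower was ste11 (SPBC32C12.02), the transcription factor of mating and meiosis, with 271, 594 and 236 CPM in aal1-pOE and 499, 634 and 752 in evc. On library totals aal1-pOE replicate 2 overlapped evc, and the log2 fold change after TMM was -1.56 ± 0.31 (SE, edgeR adjusted p = 0.019), or -1.71 ± 0.23 without that library. The call of ste11 was lost with library totals (adjusted p = 0.122) and without aal1-pOE replicate 1 (0.0799) or 3 (0.0523) or evc replicate 2 (0.111) or 3 (0.127).

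Of the meiotic cohesin genes, the kleisin rec8, which replaces Rad21 in meiosis, had a log2 fold change of 1.42 ± 0.48 (SE, edgeR adjusted p = 0.103), and rec11, the meiotic counterpart of psc3, of 1.84 ± 0.71 (adjusted p = 0.14). Both were scarce, with rec8 between 2.95 and 5.59 CPM in evc and rec11 between 1.24 and 3.15. In the fit without aal1-pOE replicate 2 they stood at 0.96 ± 0.34 and 0.75 ± 0.46. The other 4 condensin genes did not pass the test and ranged from -0.60 for the kleisin cnd2 to 1.98 ± 0.56 for cnd3 (adjusted p = 0.0664), which stood at 0.99 ± 0.27 without aal1-pOE replicate 2. The 8 genes of the Smc5-Smc6 complex, the third SMC ring of eukaryotes, had a median of 0.12, from -0.70 for the SUMO ligase nse2 to 1.17 for smc5. The medians of the SMC lists were 1.33 for cohesin, 0.68 for condensin and 0.12 for Smc5-Smc6, and the difference between lists was not tested. The cohesin list was picked because pds5 and rad21 were higher in aal1-pOE, so its median cannot be ranked against those of the other lists. Without aal1-pOE replicate 2 these medians were 0.69, 0.50 and 0.06.

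The genes of separase, securin and the shugoshins were described next. The separase gene cut1, whose product cleaves Rad21, had 24.7, 173 and 23.2 CPM in aal1-pOE and 15.8, 5.48 and 6.98 in evc. The fitted log2 fold change of cut1 was 2.02 ± 0.62 (SE, edgeR adjusted p = 0.0792), while that of sgo2, a shugoshin, was -0.48, and the median of the 4 genes was 0.29. Leaving out aal1-pOE replicate 2 gave 0.97 ± 0.38 for cut1 and a median of 0.11. For the 14 genes of the anaphase-promoting complex, the ubiquitin ligase that frees separase, the median was 0.77, with cut20 lowest at -0.44 and apc13 highest at 3.10 ± 1.10 (adjusted p = 0.113). apc13 passed the filter only through aal1-pOE, with 1.36, 7.44 and 1.14 CPM against 0.573, 0 and 0 in evc. Its place at the top of the list therefore depends on that filter. The apc13 value is a fitted one, since evc replicates 2 and 3 held 0 counts of it. Leaving out aal1-pOE replicate 2 gave a median of 0.30 for 13 genes. The 8 tested genes of cohesion at replication forks had a median of 0.54, from -0.33 for the checkpoint mediator mrc1 to 2.01 ± 0.76 for mcl1, a replisome scaffold (adjusted p = 0.134). Without aal1-pOE replicate 2 the median was 0.09, mcl1 stood at 0.52 ± 0.39 and mrc1 at 0.02 ± 0.18, with its sign changed.

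The 13 tested genes of MBF and its targets had a median of 0.98 and 10 positive values, beside 3147 of all 5823 tested genes. The highest was cdc10, a subunit of MBF, at 2.15 ± 0.61 (SE, edgeR adjusted p = 0.0664), and the lowest res1, its DNA-binding partner, at -0.27. Leaving out aal1-pOE replicate 2 gave a median of 0.30 for 12 tested genes and 1.22 ± 0.38 for cdc10. For other genes of dividing cells the median of 12 was 0.20, from the polo kinase plo1 at -0.49 to the Aurora kinase ark1 at 1.58 ± 0.65 (adjusted p = 0.157). Without aal1-pOE replicate 2 the median of the 11 tested was -0.05, with the sign changed, and ark1 stood at 0.72 ± 0.41. Their summed CPM of library totals was 867 to 1557 in aal1-pOE and 631 to 704 in evc. On that scale 47.2% of all tested genes had all 3 aal1-pOE values above all 3 evc values, so the sums are not particular to this list. No defining marker of dividing cells was at 0 in any library. The tested meiosis genes had a median of 0.70 with rec10, a component of the linear elements, highest at 1.77 (1.06 ± 0.64 without aal1-pOE replicate 2, where the median was 0.26), and a summed CPM of 1216 to 1476 in aal1-pOE and 1185 to 1372 in evc. The part of dividing or meiotic cells in the cohesin values was not tested.

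**Figure D5:**
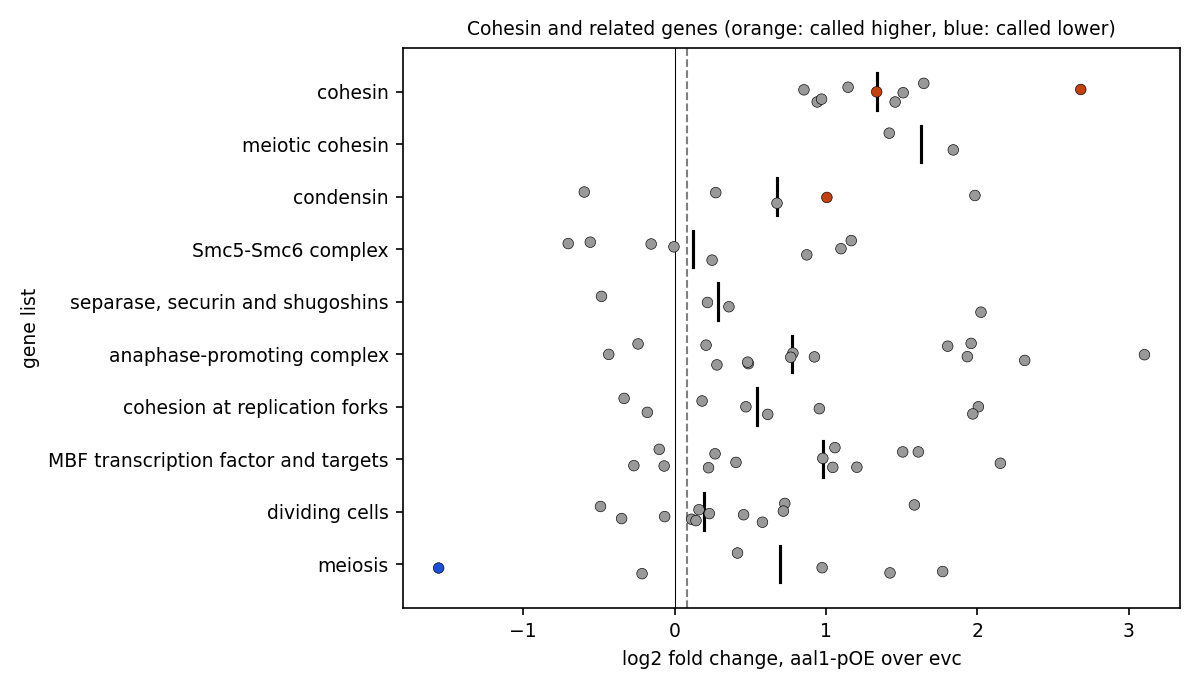
Log2 fold change, aal1-pOE over evc, of each tested gene of cohesin and of the related lists, with list medians as black bars and the median of all tested genes (0.08) as a dashed line. All 9 cohesin genes lie right of 0, with pds5 and rad21 in orange, and in the other lists only cut3 (orange) and ste11 (blue) were called.

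The genes around the cohesin loci were read last. Annotated genes of ASM294v3 overlapped the 9 loci 25 times, of which 24 were on the opposite strand, and 8 of the 25 had a row in the count table. The counts used strand, so antisense transcripts were counted apart. Of 21 tested genes that overlap a cohesin gene or lie next to it, edgeR called 0, against 7 at an unadjusted p under 0.05, 6 of them higher, beside the shares of 14.6% and 12.5% of all genes given above. The likelihood ratio test and DESeq2 each called 2 higher and 1 lower, where they called 6.82% and 6.75% of all genes higher and 8.11% and 8.79% lower, and limma-voom called 0. The antisense RNA SPNCRNA.725, which covers all 3890 bases of the psm3 gene, gave 106, 664 and 37 counts with aal1-pOE, compared with 22, 21 and 19 for evc (log2 fold change 1.90 ± 0.59 SE, edgeR adjusted p = 0.0839), or 1.10 ± 0.38 without aal1-pOE replicate 2. SPNCRNA.773, antisense to 2058 bases of pds5, drew 41, 107 and 28 counts from the aal1-pOE libraries and 14, 6 and 9 from evc (1.25 ± 0.51, adjusted p = 0.155), with 1.24 ± 0.41 without that library. For psm1 the antisense SPNCRNA.1525 had a log2 fold change of 0.16 ± 0.35, or 0.52 ± 0.17 without it. SPNCRNA.1187, which shares 97 bases with the start of rad21 on the same strand, went the other way from rad21, at -0.93 ± 0.53 (adjusted p = 0.273), or -0.53 ± 0.39 without it. Reads in those shared bases cannot be assigned to either gene.

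The 13 next neighbours had a median log2 fold change of 0.30, and of 0.35 without aal1-pOE replicate 2. exo1, an exonuclease gene directly downstream of psm1, gave 193, 1702 and 101 counts with aal1-pOE, compared with 82, 44 and 49 for evc (1.70 ± 0.55 SE, edgeR adjusted p = 0.0924), and 0.71 ± 0.26 without aal1-pOE replicate 2. The smallest p among all 21 genes was that of rio1, a protein kinase gene next to psm3 on the opposite strand, at -0.78 ± 0.22 (edgeR adjusted p = 0.0665) and at -0.68 ± 0.19 without aal1-pOE replicate 2. It was the 1 gene of the 7 with an unadjusted p under 0.05 that was lower. ppk1, a protein kinase gene directly upstream of pds5, had a log2 fold change of -0.29 ± 0.36 (SE), and of 0.02 ± 0.17 without aal1-pOE replicate 2.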

How the data were processed

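The authors made strand-specific libraries from rRNA-depleted total RNA and, per the submitters' processing notes and the study's methods, aligned reads with STAR 2.6.1a to the PomBase genome (build not given in the sources used here). They counted reads per gene with HTSeq 0.12.3. The authors deposited whole-number counts of reads, neither normalised nor pooled. No source used here gives a step that collapses duplicate reads. The labels call the replicates biological, and p-values measure the spread between these 3 cultures per group.

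From the counts, edgeR 4.0.16 in R 4.3.3 was run on the 5823 genes above 1 CPM in at least 3 libraries, with TMM factors, strain as the only term, a quasi-likelihood test and Benjamini-Hochberg adjustment over all tested genes. The threshold for a call was an adjusted p of 0.05. SE was derived from each log2 fold change and its F statistic, as the size of the one divided by the root of the other. Alternatives used DESeq2 1.42.0 and limma 3.58.1, other scalings and filters, a replicate block and fits without single libraries. Names and coordinates are those of RefSeq ASM294v3, which matched 6805 of 6952 identifiers. Coordinates and sequences were not taken from the authors' genome release, and the count table carries none. Most-like genes were ranked on log2 CPM with a prior count of 2.

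Named genes were the 9 cohesin genes, aal1, of each related list the called genes and those with the highest and lowest value, the 5 most like pds5 and rad21, and overlapping or neighbouring genes, of which part is printed. The members and lists were chosen with earlier results of these data known. The name lid1 of the anaphase-promoting complex list matched no gene and was left out. Some items withheld for evaluation are not reported here.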

Additional observations from a re-analysis of the deposited data

How the results depend on the processing

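The 9 log2 fold changes of cohesin genes stayed positive under every alternative that tested them (psc3 was not tested at 10 CPM), while the calls depended on the fit. Against 2 cohesin genes called higher, the likelihood ratio test and DESeq2 gave 5 each, limma-voom gave 1 (rad21), and leaving out aal1-pOE replicate 2 with evc replicate 1 gave 5, with 6.82%, 6.75%, 0.326% and 19.4% of tested genes called higher. Leaving out single libraries gave 0 to 3. The call of pds5 was lost without evc replicate 1, 2 or 3, and that of rad21 without evc replicate 2 or 3, where 1 gene in all was called higher. The median of the cohesin genes was 2.09 with library totals and 0.69 to 1.49 on leaving out single libraries, lowest without aal1-pOE replicate 2. The cause of these changes was not tested.

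Of all genes, 79 were called higher, against 517 with library totals, 397 in the likelihood ratio test, 393 in DESeq2, 19 in limma-voom, 1085 without both libraries named above and 1 to 252 without single libraries. The 270 called lower became 154, 472 and 512 in the first 3 of these, 1131 without both libraries and 81 to 518 without single libraries. Of related genes, 1 was called higher, against 9 with library totals and 3 with a filter of 10 CPM, where 2.48% of all genes were. The likelihood ratio test and DESeq2 called 12 each, and limma-voom called 0. There were 20 without both libraries and 0 to 9 without single libraries. The 1 called lower became 0 with library totals, 5 without both libraries and 0 or 1 without single libraries. On leaving out libraries, singly or both of those named, rep1 ranged from -0.31 to 0.71 (main value -0.07), cdc25 from -0.89 to 0.50 (0.11) and pcn1 from -0.74 to 0.42 (0.14). Each changed sign without aal1-pOE replicate 2 alone (0.29, -0.89 and -0.60) and without both. Without both, edgeR called rep1 higher (adjusted p = 0.00494) and cdc25 (0.0303) and pcn1 (0.0465) lower. In that fit 19.4% of all tested genes were called higher and 20.2% lower.

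Correlations of deviations from the group means were 0.033, 0.0097 and 0.0065 between libraries of the same replicate number. Of the 6 libraries, 5 correlated best with their own number. With 3 libraries per group, these values cannot show whether the replicate numbers pair the samples. With a replicate block, 5 cohesin genes, 7 related genes and 247 of all genes were called higher. The evc counts of pds5, 12 to 27, limit the precision of its fold change.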
